A study of Mus musculus with 24 samples.

Results

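The genes described here are 36 mouse genes of the actomyosin and contractile cytoskeleton. They comprise 4 actins, 5 transgelins and calponins, 5 genes of myosin II and its kinase, 7 tropomyosins and other thin filament regulators, 9 crosslinkers and LIM adaptors, 5 genes of filament turnover and nucleation, and the transcription factor Srf. They were listed by name, matched to Ensembl gene identifiers and kept where the mean count over the 24 libraries was at least 5. All 36 of the 36 listed genes passed, among 14361 genes with that mean and 39017 gene identifiers counted in each library.

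Myosin II pulls on actin filaments, and crosslinkers such as alpha-actinin and filamin carry the pull to adhesion sites, where fibroblasts bundle these filaments into stress fibers. Srf transcribes many actin cytoskeleton genes from a promoter element named the CArG box, together with co-activators that free actin monomers hold back. YAP and TAZ are co-activators of the TEAD transcription factors and respond to cell density and to tension in the same filaments.

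RNA was sequenced from NIH 3T3 cells, a mouse embryo fibroblast line, that stably carried the empty pBabeNeo retroviral vector or Flag-tagged human constructs in it. TAZ4SA and YAP5SA are hyperactive forms whose serines targeted by the LATS kinases were changed to alanine, TAZ-CAMTA1 and YAP-TFE3 are the fusions of epithelioid hemangioendothelioma, a vascular sarcoma, and TFE3 and CAMTA1 are the fusion partners alone. Cells with the empty vector were collected confluent (EV) and sub-confluent (EVsub), and each of the 8 groups had 3 libraries. The comparisons ask how each construct changed expression against the vector, how the fusions differed from hyperactive TAZ and YAP, and what density did to vector cells.

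Confluence had lasted 48 h in every group except CAMTA1 and EVsub, which were sub-confluent, as far as the sample labels say. The study's methods describe lines containing CAMTA1 as sub-confluent, wording that could include TAZ-CAMTA1. If it does, construct and density cannot be told apart in TAZ-CAMTA1 vs EV. The lines were pools of G418-selected cells, and the study's methods state that the triplicates came from separate transductions, so p-values measure the spread between lines made apart from a single parent line. For YAP-TFE3 replicate 3, another label field gives the number 2.

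The lowest, median and highest total counts were 19981310, 21750297 and 22419096 in EV, 20198078, 22363950 and 28020955 in EVsub, and 16471181, 21688196 and 21964589 in TAZ4SA. They were 19055901, 23599726 and 26390310 in YAP5SA, 20906035, 23574050 and 23923921 in TAZ-CAMTA1, and 19777954, 22556635 and 28170637 in YAP-TFE3. TFE3 had 21414273, 22234000 and 27158220, and CAMTA1 had 19823573, 25706916 and 30132586. Replicates differed beyond counting noise, since chi-square over its degrees of freedom ran between 5.7 (TFE3 replicates 1 and 2) and 119 (TAZ4SA replicates 2 and 3). EV replicate 2 stood apart from EV replicates 1 and 3, with 33.8 and 23.9 against 6.68 between the other two. The factors that scaled library sizes ran from 0.773 to 1.087. They were low in YAP5SA, at 0.826, 0.773 and 0.829, and in TAZ4SA replicate 2, at 0.81.

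The fibroblast label was checked against 14 marker genes, and all 14 of 14 passed the minimum mean count. Their summed level, in CPM (counts as a share of the scaled library size), ran from 21780 to 61220 over the 24 libraries. Values of 3 libraries are given throughout in the order of replicates 1, 2 and 3. The sums were 40070, 43770 and 43990 CPM in EV, 24590, 29930 and 23720 CPM in TAZ4SA, and 30900, 36150 and 32590 CPM in YAP5SA. Fn1, the gene of fibronectin, was the most abundant of them in all groups except YAP5SA, where Col1a2, a collagen I chain, was. Of the 14, 2 rose and 6 fell in TAZ4SA, 3 rose and 6 fell in YAP5SA, 4 rose and 1 fell in TAZ-CAMTA1, and 5 rose and 1 fell in YAP-TFE3, where the sums were 61220, 48250 and 46610 CPM. Of all genes, 31.1% rose and 26.4% fell in TAZ4SA, and 36.3% and 34.9% in YAP5SA. In TAZ-CAMTA1 these shares were 12.5% and 8.98%, and in YAP-TFE3 10.6% and 4.74%. The same 6 fell in TAZ4SA and YAP5SA (Fn1, Pdgfra, Pdgfrb, S100a4, Dcn and Lum), Fn1 with log2 fold changes of -1.43 ± 0.19 (SE) and -1.11 ± 0.19 and Dcn the most, with -2.55 ± 0.47 and -5.49 ± 0.54. In EVsub, where 12.5% of all genes rose and 9.59% fell, 1 rose and 5 fell, among them Lum (-3.69 ± 0.46) and Dcn. In the hyperactive forms Thy1 (1.66 ± 0.19 and 2.36 ± 0.20) and Fap (18 counts in all of EV, 653 and 117 in these) rose in both, and Vim rose in YAP5SA (1.19 ± 0.15). The rises in YAP-TFE3 were those of Thy1 (1.49 ± 0.19), Col1a1 (0.97 ± 0.25), Sparc (0.89 ± 0.19), Col1a2 (0.82 ± 0.20) and Col5a1 (0.81 ± 0.20), and all of these but Col1a2 rose in TAZ-CAMTA1.

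Smooth muscle markers summed to 457.3, 292 and 447 CPM in EV, 2019, 1287 and 1210 CPM in YAP-TFE3, and 471.7, 444.5 and 457.1 CPM in YAP5SA. The sums were also high in CAMTA1, at 1348, 1282 and 1102 CPM, and in EVsub, at 855.8, 1374 and 731.4 CPM. Of these 10 markers 7 are members of the list itself, Acta2 was the most abundant except in YAP5SA, where Tagln was, and Myocd, the smooth muscle co-activator of Srf, never passed 1 count in a library. Macrophage markers, 3 of 5 tested, summed to 4.18, 3.1 and 4.38 CPM in EV, 67.5, 58.5 and 16.5 CPM in TAZ4SA, and 132.3, 108.3 and 83.6 CPM in YAP5SA. Cd68 was the most abundant of the 5, while Adgre1 had 0 counts in every library and Ptprc stayed at or under 0.176 CPM. Cd68, Csf1r and Itgam, the tested macrophage markers, all rose in TAZ4SA and YAP5SA, where 31.1% and 36.3% of all genes rose. Csf1r overlaps Hmgxb3 on the opposite strand (mean count 1002), and Itgam, with a mean count of 6.625, was near the minimum. Epithelial markers, 2 of 5 tested, reached 8.78, 7.51 and 9.25 CPM in YAP5SA, nearly all from Krt14, while Cdh1, with 14 counts in all of EV, had 2 each in TAZ4SA and YAP5SA, 47 in TAZ-CAMTA1 and 48 in YAP-TFE3, and Epcam had 0 counts in every library. Cdh1, with a mean count of 6.54, and Krt14, with 24.8, passed the minimum chiefly through groups in which they were high. Striated muscle markers, 7 of 17 tested, summed to 4.48, 4.58 and 4.91 CPM in EV, 26.7, 23.1 and 14.4 CPM in TAZ4SA and 29.5, 65.3 and 32.6 CPM in YAP5SA, led by Tnnt3 in YAP5SA, with Actc1 and Myod1 at 0 counts in every library. Endothelial markers, 4 of 5 tested, reached at most 16.3 CPM, in TAZ4SA replicate 1, led there by Kdr while Tek fell. Of these, Cdh5 rose in both hyperactive forms and both fusions and was highest in TAZ-CAMTA1 (1.335, 2.05 and 1.637 CPM). With a mean count of 7.375, Cdh5 passed the minimum through the TAZ-CAMTA1 libraries, in which it was high. None of 4 adipocyte markers was tested. The part of these markers in the results was not tested. In bulk RNA, fewer cells of a type and less RNA per cell cannot be told apart.

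Differences are log2 fold changes with their standard error, 3 libraries in each group, from 1 model over all 24 libraries. Each adjusted p is that of the edgeR quasi-likelihood test, adjusted over the 14361 genes by the Benjamini-Hochberg method. A gene is said to have risen or fallen where its adjusted p was under 0.05. Values per library are written for Acta2, Actb, Actg1, Srf and the members with the largest called rises and falls in each comparison with a vector. Values of members outside that rule were chosen after they were seen.

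Per length, as CPM per kilobase of exon, the EV level of members spanned a wide range. Actb, a cytoplasmic actin, had the highest EV level at 577 ± 24.5 CPM per kilobase (SD, n = 3), followed by Actg1, the other cytoplasmic actin, at 342 ± 15.6. Cfl1, which severs filaments, followed at 234 ± 13.2 CPM per kilobase and Cnn3, acidic calponin, at 222.5 ± 42.6, a pair that did not differ beyond their spread. Synpo2 at 0.287 ± 0.156 and Cnn1 at 0.0432 ± 0.0073 CPM per kilobase were the lowest in EV. Together the 36 members took 1.31%, 1.19% and 1.32% of the counts of the EV libraries, 1.96%, 1.6% and 1.87% in YAP5SA, and 2.12%, 2.04% and 1.89% in CAMTA1 beside 1.78%, 1.74% and 1.52% in EVsub, its control. TAZ4SA, at 1.458%, 1.115% and 1.451%, overlapped EV.

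Most members were called in the hyperactive forms, as were most genes overall. In YAP5SA vs EV, 21 of 36 members rose and 7 fell, where 36.3% of all genes tested rose and 34.9% fell, and the median log2 fold change was 0.58 beside 0.01 over all genes. In TAZ4SA 18 members rose and 9 fell, where 31.1% of all genes rose and 26.4% fell, and the median was 0.25 beside 0.05. The 9 falls are close to the share of falls among all genes. With library totals in place of scaled library sizes, the median over all genes shifted to -0.36 in YAP5SA and to -0.12 in TAZ4SA. Under those totals 17 members rose and 12 fell in YAP5SA (3565 and 6775 of all genes), and 12 rose and 10 fell in TAZ4SA (3424 and 4747 of all genes). No member called in either comparison changed direction under these totals, and changes are given relative to the scaled sizes.

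The fusions moved fewer members. In TAZ-CAMTA1 vs EV 13 members rose and 3 fell, where 12.5% of all genes rose and 8.98% fell, with a median of 0.22 beside -0.00. Sub-confluent vector cells were then used as the control, an alternative chosen after seeing the data because of the wording on density. Against EVsub 5 members rose (Cnn2, Cnn3, Mylk, Lmod1 and Smtn) and 9 fell (Actg2, Actg1, Tagln, Tpm2, Actn1, Pdlim5, Csrp1, Csrp2 and Cfl1), with a median of -0.17 beside -0.02 and with 1659 rises and 1409 falls among all genes. Calls of Acta2, Tagln2, Tpm3, Tpm4, Actn4 and Dstn against EV changed sign and were lost against EVsub, and Cnn3 and Tpm2 changed sign and were called against EVsub alone. In YAP-TFE3 vs EV 7 members rose and 2 fell, where 10.6% of all genes rose and 4.74% fell, with a median of 0.10 beside 0.00. Without YAP-TFE3 replicate 1 the 9 calls became 4.

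The fusion partners alone moved few members. In TFE3 vs EV 0 members rose and 1 fell by edgeR, where 2.36% of all genes rose and 1.02% fell, and the median was -0.10 beside -0.02. At an unadjusted p under 0.05 there were 6 members, and DESeq2 called 0 rises and 3 falls. The 1 call became 0 without EV replicate 1, EV replicate 3 or any TFE3 replicate, and 2 without EV replicate 2. In CAMTA1 vs EVsub 1 member rose and 1 fell, where 1.29% of all genes rose and 0.891% fell, with a median of 0.19 beside -0.03. Library totals and DESeq2's size factors each gave 2 rises and 1 fall. The 2 calls became 5 without EVsub replicate 1, and 0 without EVsub replicate 2, EVsub replicate 3, CAMTA1 replicate 1 or CAMTA1 replicate 2.

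Between sub-confluent and confluent vector cells more members rose than fell. In EVsub vs EV 19 members rose and 2 fell, where 12.5% of all genes rose and 9.59% fell, with a median of 0.43 beside 0.02. Leaving out EV replicate 1, EV replicate 2, EVsub replicate 1 or EVsub replicate 2 gave 13 calls in place of 21, of which Pdlim5 was new without EVsub replicate 2. With the 2 groups alone in the fit 9 of the 21 remained. All comparisons with EV share its 3 libraries, so their values stand side by side and are not independent of each other.

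**Figure D1:**
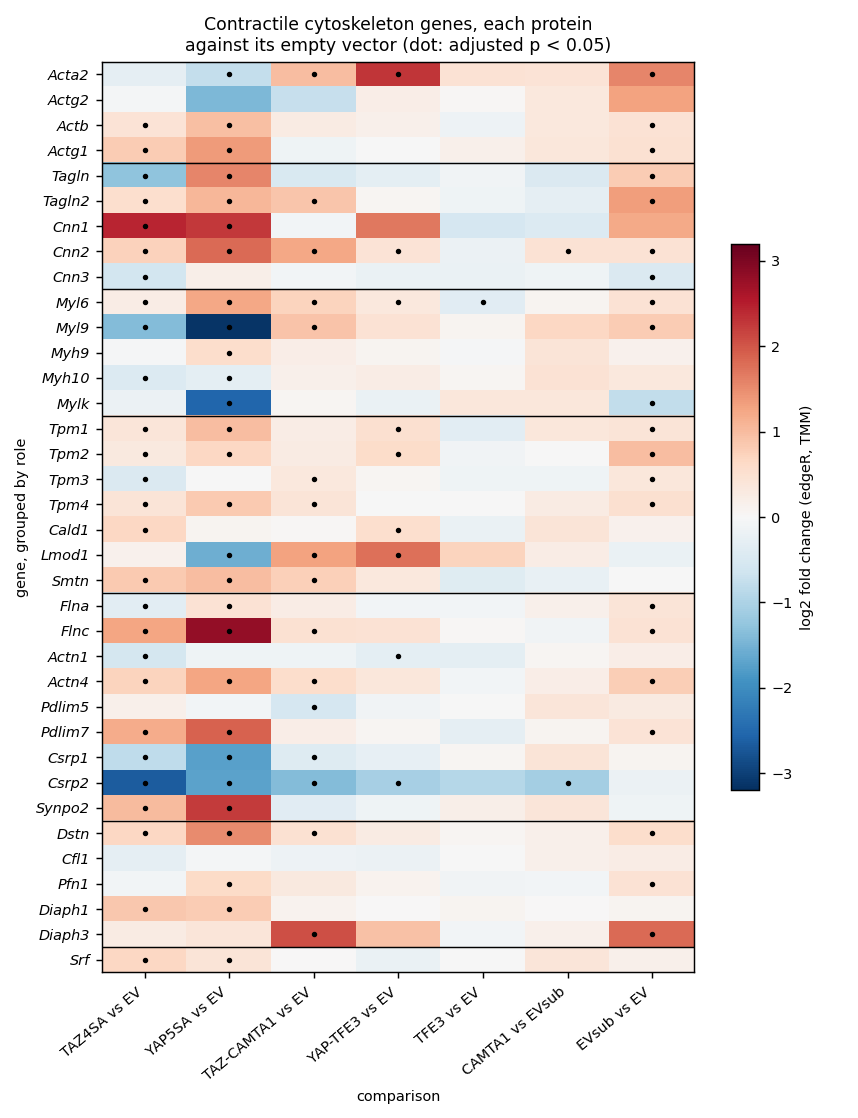
Colour gives the log2 fold change of each of the 36 members (y axis, by role) in each of the 7 comparisons with a vector control (x axis), and a dot marks an edgeR adjusted p under 0.05. Rises outnumber falls in YAP5SA (21 and 7), TAZ4SA (18 and 9) and EVsub (19 and 2), no called member changes direction under library totals, and with EVsub as the control the TAZ-CAMTA1 column turns to 5 rises and 9 falls.

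Promoter windows were searched for the motifs of Srf and of TEAD, the factor that YAP and TAZ bind. The windows came from RefSeq GRCm38.p6 and 31 of 36 members matched. Diaph1, Actg2, Tagln, Csrp2 and Actb had no entry. In the 250 bases before the start, a CArG box, the Srf motif, lay in 5 of the 31 members (Actg1, Cnn2, Myl6, Myl9 and Srf) and in 1.62% of all 27025 genes with a window. Only the exact motif was counted, a fixed run of A or T between CC and GG. A box with a deviating base, or one farther from the start, would be missed. GGAATG, a TEAD motif, was searched on both strands and lay in 12 of 31 members (Acta2, Actn4, Cald1, Flna, Flnc, Lmod1, Myh10, Mylk, Pfn1, Smtn, Tagln2 and Tpm1) and in 14.4% of all genes with a window. A match is a description of letters and not a site of binding.

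Of the 5 with a CArG box, 4 rose in both TAZ4SA and YAP5SA (Actg1, Cnn2, Myl6 and Srf) and 1 fell in both (Myl9), where 31.1% of all genes rose and 26.4% fell in TAZ4SA, and 36.3% and 34.9% in YAP5SA. With library totals the call of Myl6 in TAZ4SA (0.06) and that of Srf in YAP5SA (0.04) were lost. The promoters of all but Myl6 follow, with the box in capitals, read on the strand of the gene.
Actg1, chr11:120348543-120348677, minus strand: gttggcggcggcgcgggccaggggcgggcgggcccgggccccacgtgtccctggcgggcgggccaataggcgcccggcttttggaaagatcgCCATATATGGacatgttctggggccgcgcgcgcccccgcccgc
Cnn2, chr10:79988400-79988583, plus strand: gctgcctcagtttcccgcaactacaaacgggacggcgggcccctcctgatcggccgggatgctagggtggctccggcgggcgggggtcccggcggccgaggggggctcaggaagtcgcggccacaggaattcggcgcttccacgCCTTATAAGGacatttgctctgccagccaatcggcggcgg
Myl9, chr2:156775264-156775419, plus strand: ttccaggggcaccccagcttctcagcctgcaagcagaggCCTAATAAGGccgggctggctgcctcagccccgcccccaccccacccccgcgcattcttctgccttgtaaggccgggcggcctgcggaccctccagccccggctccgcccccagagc
Srf, chr17:46556176-46556362, minus strand: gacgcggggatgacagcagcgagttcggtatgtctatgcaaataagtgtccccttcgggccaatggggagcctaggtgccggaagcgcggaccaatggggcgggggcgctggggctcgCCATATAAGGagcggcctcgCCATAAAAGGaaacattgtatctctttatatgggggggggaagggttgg
The next pair hold GGAATG in capitals, for Flnc, with the largest rise in YAP5SA, and Lmod1, which rose in both fusions and fell in YAP5SA. In Flnc the motif is on the opposite strand and reads CATTCC.
Flnc, chr6:29433056-29433255, plus strand: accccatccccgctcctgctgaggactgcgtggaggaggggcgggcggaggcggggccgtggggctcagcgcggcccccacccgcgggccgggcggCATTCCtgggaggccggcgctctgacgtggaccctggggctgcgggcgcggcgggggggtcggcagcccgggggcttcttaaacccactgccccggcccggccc
Lmod1, chr1:135324613-135324806, plus strand: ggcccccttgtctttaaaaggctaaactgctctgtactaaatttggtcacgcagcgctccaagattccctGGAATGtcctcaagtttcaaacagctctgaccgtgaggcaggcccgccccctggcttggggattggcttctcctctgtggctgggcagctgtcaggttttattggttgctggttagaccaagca

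Acta2, the smooth muscle actin that contractile fibroblasts also make, had its largest rise against a vector in YAP-TFE3. It stood at 320.6, 212.4 and 317.3 CPM in EV and at 1888, 1158 and 1091 CPM in YAP-TFE3. All YAP-TFE3 libraries lay above all EV libraries, replicate 1 highest, with a log2 fold change of 2.28 ± 0.23 (edgeR adjusted p = 3.63e-07). EVsub counted 745, 1141 and 600.5 CPM, above EV without overlap, and the gene rose by 1.55 ± 0.22 (edgeR adjusted p = 5.74e-05). CAMTA1, at 1222, 1155 and 980.1 CPM, overlapped EVsub (0.43 ± 0.22, edgeR adjusted p = 0.298) and was as high as YAP-TFE3 replicates 2 and 3. TAZ-CAMTA1 counted 589.1, 623.5 and 479.2 CPM, again above EV, and the rise was 0.99 ± 0.22 (edgeR adjusted p = 0.00233). Against EVsub the same libraries gave -0.56 ± 0.22 (edgeR adjusted p = 0.0738), so the direction in TAZ-CAMTA1 depends on the vector cells used. In YAP5SA the gene fell, from the EV level to 186.7, 158.7 and 152.2 CPM, by -0.77 ± 0.22 on the log2 scale (edgeR adjusted p = 0.00355). TAZ4SA, at 273.6, 227.2 and 190.3 CPM, overlapped EV (-0.30 ± 0.22, edgeR adjusted p = 0.252).

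Actb, at 1505, 1511 and 1622 CPM in EV, was at 3378, 2688 and 2877 CPM in YAP5SA and at 2599, 1788 and 1864 CPM in TAZ4SA. Both groups lay above EV, and the rises were 0.95 ± 0.14 in YAP5SA (edgeR adjusted p = 2.1e-06) and 0.43 ± 0.14 in TAZ4SA (edgeR adjusted p = 0.00933). The TAZ4SA call was lost without TAZ4SA replicate 1, its highest library, at 0.24, with library totals, at 0.25, and with only these 2 groups in the fit, at 0.38. In EVsub, at 2236, 2248 and 1841 CPM, Actb rose by 0.45 ± 0.14 (edgeR adjusted p = 0.0204), a call lost without EV replicate 1 (0.43), EV replicate 2 (0.43), EVsub replicate 1 (0.40) or EVsub replicate 2 (0.40), and with the 2 groups alone (0.44). In TAZ-CAMTA1 and YAP-TFE3 the differences of Actb were 0.27 ± 0.13 and 0.15 ± 0.13, neither called.

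Actg1 had 863.2, 941.7 and 925.1 CPM in EV, 2427, 2116 and 2461 CPM in YAP5SA, and 2161, 1469 and 1164 CPM in TAZ4SA. All libraries of both groups exceeded EV, and replicates 1 to 3 of TAZ4SA were widely spread. Actg1 rose by 1.36 ± 0.15 in YAP5SA (edgeR adjusted p = 6.49e-08) and by 0.81 ± 0.15 in TAZ4SA (edgeR adjusted p = 9.69e-05), the latter 0.53 without TAZ4SA replicate 1. The gene did not pass the test in TAZ-CAMTA1 (-0.14 ± 0.15), at 811.2, 887.6 and 786.3 CPM, and against EVsub it fell there, by -0.62 ± 0.15 (edgeR adjusted p = 0.00481). In EVsub, at 1340, 1289 and 1198 CPM, it rose by 0.49 ± 0.15 (edgeR adjusted p = 0.0232), lost without EV replicate 1 (0.45), EV replicate 3 (0.50), EVsub replicate 1 (0.45) or EVsub replicate 2 (0.48). Actg2, the enteric smooth muscle actin, ran from 0.147 to 2.67 CPM and was not called by edgeR or DESeq2 in the 7 comparisons with a vector. In edgeR its fall in YAP5SA was called with library totals (-1.81), no filter (-1.46) or the 2 groups alone (-1.48), and its rise in EVsub with no filter (1.30) or without EVsub replicate 3 (1.71). Actin genes are near-identical in coding sequence and have pseudogenes, and the study's methods name Hisat2 and also Salmon with tximport without saying which made these counts, so their counts are uncertain to that extent.

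The make-up of the actin pool, a share that needs no scaling between libraries, differed between groups. Per length, Acta2 took 14.1%, 9.52% and 13.2% of the reads of 6 actin genes in EV. In YAP-TFE3 it took 47.6%, 35% and 33.1%, and in YAP5SA 3.76%, 3.86% and 3.35%. The YAP-TFE3 shares all lay above EV and the YAP5SA shares all lay below. Acta1, a striated muscle actin, held at most 0.0338% and Actc1 had 0 counts in every library. The other families shifted too. Flnc took 24.5%, 23.2% and 25.1% of filamin reads per length in EV and 64%, 59.4% and 61.4% in YAP5SA, so that Flnc passed Flna there. Cnn2 took 37.5%, 42.6% and 40% of calponin reads per length in EV, 66.9%, 66.5% and 67.6% in YAP5SA, and 65.2%, 66.9% and 63.7% in CAMTA1 beside 61%, 51.5% and 54.1% in EVsub. Actn4 took 38.4%, 41.9% and 38.5% of alpha-actinin reads in EV and 63.7%, 63.7% and 63% in YAP5SA. Such shifts were not confined to these groups, by mean CPM per kilobase. In EV Cnn2 was at 147.2 beside Cnn3 at 222.5, and Actn4 at 45.1 beside Actn1 at 68.8. In TAZ4SA these were 246.2 and 147.9, and 73.5 and 46.6. In TAZ-CAMTA1 Cnn2 was at 344.6 and Cnn3 at 208.9. Acta2 was at 377.4 beside Actb at 787 in EVsub, and at 129.1 beside 577.1 in EV. These shares and levels are descriptions with no test.

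**Figure D2:**
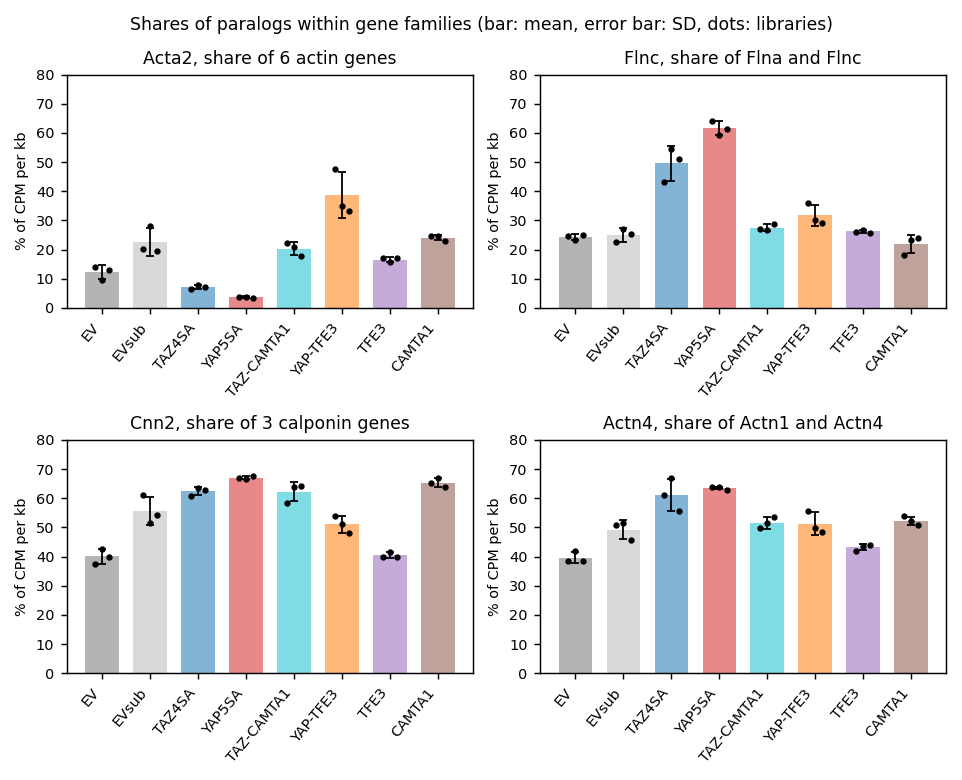
Each panel gives the share (y axis, percent of the family's reads per exon length, which does not depend on scaling) of 1 gene in each library (points) with the group mean (bar) and SD (error bar) for the 8 groups (x axis): Acta2 of 6 actin genes, Flnc of the filamins, Cnn2 of the calponins and Actn4 of the alpha-actinins. The mean Acta2 share is 38.6% in YAP-TFE3 and 3.66% in YAP5SA beside 12.3% in EV, while the mean Flnc share is 61.6% in YAP5SA beside 24.3% in EV.

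Calponins and transgelins bind along actin filaments, and Cnn2 rose in every comparison with a vector except TFE3 vs EV. Its levels were 376.2, 318.6 and 391.8 CPM in EV, 1246, 1303 and 1228 CPM in YAP5SA, 591.3, 671.4 and 554.1 CPM in TAZ4SA and 745, 938.6 and 859.3 CPM in TAZ-CAMTA1. No library of these 3 constructs overlapped EV. The rises were 1.80 ± 0.12 in YAP5SA (edgeR adjusted p = 2.06e-11), 0.74 ± 0.11 in TAZ4SA (edgeR adjusted p = 1.06e-05) and 1.23 ± 0.11 in TAZ-CAMTA1 (edgeR adjusted p = 8.36e-08). Against EVsub the TAZ-CAMTA1 rise was 0.77 ± 0.11 (edgeR adjusted p = 4.06e-05). In YAP-TFE3, at 542.2, 465.9 and 471.1 CPM, the rise of 0.44 ± 0.11 (edgeR adjusted p = 0.00859) was lost without EV replicate 2 (0.36) or YAP-TFE3 replicate 1 (0.34). In CAMTA1, at 655, 746.7 and 640.7 CPM against 540.4, 456.6 and 498.5 CPM in EVsub, Cnn2 rose by 0.45 ± 0.11 (edgeR adjusted p = 0.0365). That call was lost without EVsub replicate 2 (0.39), EVsub replicate 3 (0.45), CAMTA1 replicate 1 (0.48) or CAMTA1 replicate 2 (0.38), and with no filter (0.45), replicate number as a block (0.45) or the 2 groups alone in the fit (0.46). In EVsub vs EV it rose by 0.46 ± 0.11 (edgeR adjusted p = 0.0056), lost with the 2 groups alone (0.45).

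Cnn1, the calponin of differentiated smooth muscle, was near the detection limit. EV had 0.127, 0.0955 and 0.133 CPM, or 8 counts in all, against 0.595, 1.12 and 0.396 CPM in TAZ4SA and 0.565, 0.54 and 0.697 CPM in YAP5SA. All libraries of both groups lay above EV. The ratio to EV was 5.38 in TAZ4SA (95% counting interval 2.46 to 13.4, 36 against 8 counts) and 4.98 in YAP5SA (2.26 to 12.5, 33 against 8). Such intervals cover counting error only. The fitted rises were 2.43 ± 0.56 (edgeR adjusted p = 0.000821) and 2.27 ± 0.57 (edgeR adjusted p = 0.00114). With a mean count of 6.58, Cnn1 was above the minimum of 5 partly through these groups, in which it was high. YAP-TFE3 also lay above EV, with a ratio of 3.32 (1.48 to 8.41, 29 against 8). It was not called, though it was in edgeR with library totals (1.68) or the 2 groups alone (1.68).

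Cnn3 moved against Cnn2 in TAZ4SA and EVsub. Its levels were 772.4, 529 and 726 CPM in EV, 469.5, 474.3 and 403.5 CPM in TAZ4SA and 427, 529.9 and 521.2 CPM in EVsub. TAZ4SA lay below EV, and EVsub replicate 2 overlapped EV replicate 2. The falls were -0.59 ± 0.12 in TAZ4SA (edgeR adjusted p = 0.000327) and -0.46 ± 0.12 in EVsub (edgeR adjusted p = 0.0103), the latter lost without EV replicate 1 (-0.35), EV replicate 3 (-0.40) or EVsub replicate 1 (-0.36), and with the 2 groups alone (-0.47). In TAZ-CAMTA1 Cnn3 was not called against EV (-0.09 ± 0.12) and rose against EVsub (0.36 ± 0.12, edgeR adjusted p = 0.0374).

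Tagln, the transgelin of smooth muscle, split the hyperactive pair. It stood at 69.5, 35.4 and 66.5 CPM in EV, 28.7, 21.4 and 20.6 CPM in TAZ4SA and 168.9, 155.9 and 180.3 CPM in YAP5SA. TAZ4SA lay below EV and YAP5SA above it, a fall of -1.28 ± 0.28 (edgeR adjusted p = 0.000607) and a rise of 1.56 ± 0.28 (edgeR adjusted p = 3.56e-05). Compared directly, TAZ4SA was below YAP5SA by -2.84 ± 0.30 (edgeR adjusted p = 4.08e-07). Tagln overlaps Pcsk7 on the opposite strand (mean count 558), and although the libraries were stranded, the strand setting of the counts is not given, so reads of the 2 genes may be mixed. Tagln2, the transgelin of many cell types, rose in TAZ4SA, YAP5SA, TAZ-CAMTA1 and EVsub, and was highest in EVsub replicate 2, at 396 CPM. Its TAZ4SA rise of 0.54 ± 0.22 was lost without EV replicate 1 (0.49), EV replicate 3 (0.42), TAZ4SA replicate 2 (0.52) or TAZ4SA replicate 3 (0.48), with library totals (0.36), with at least 10 counts in every library (0.47) and with the 2 groups alone (0.48). Its rise in TAZ-CAMTA1 was lost against EVsub (-0.45).

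Genes of myosin II and its kinase moved in opposite directions. Myl9, the regulatory light chain of smooth muscle and stress fiber myosin, was at 5.07, 3.01 and 5.44 CPM in EV, 1.59, 1.65 and 1.89 CPM in TAZ4SA and 0.462, 0.54 and 0.507 CPM in YAP5SA. Both groups lay below EV without overlap. Myl9 fell by -3.15 ± 0.32 in YAP5SA (edgeR adjusted p = 1.41e-08) and by -1.39 ± 0.27 in TAZ4SA (edgeR adjusted p = 0.000131). The YAP5SA libraries held only 9, 11 and 8 counts of Myl9, so the size of that fall rests on few counts. In TAZ-CAMTA1, at 11.1, 8.8 and 5.39 CPM, it rose by 0.90 ± 0.23 (edgeR adjusted p = 0.00767), although replicate 3 overlapped EV. That rise was lost without TAZ-CAMTA1 replicate 1 (0.65) and was 0.09 ± 0.23 against EVsub, at 8.43, 7.98 and 7.31 CPM. In EVsub vs EV the gene rose by 0.81 ± 0.23 (edgeR adjusted p = 0.0161), lost without EV replicate 2 (0.59) or EVsub replicate 1 (0.76), and with the 2 groups alone (0.80).

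Mylk, the kinase that switches on smooth muscle and nonmuscle myosin II through that light chain, stood at 10.5, 7.21 and 9.38 CPM in EV and at 1.75, 1.91 and 0.95 CPM in YAP5SA. The YAP5SA libraries were all lower, by -2.53 ± 0.25 (edgeR adjusted p = 1.23e-08). In TAZ4SA, at 9.08, 6.67 and 7.74 CPM, Mylk overlapped EV (-0.20 ± 0.22). In EVsub, at 4.15, 4.63 and 6.89 CPM, it fell by -0.79 ± 0.22 (edgeR adjusted p = 0.0129), lost without EV replicate 1 (-0.67), EVsub replicate 1 (-0.65) or EVsub replicate 2 (-0.71), and with the 2 groups alone (-0.80).

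Myl6, the essential light chain of nonmuscle and smooth muscle myosin, went the other way. It had 424.4, 350.5 and 399.3 CPM in EV, 907.6, 955 and 890.7 CPM in YAP5SA and 629.3, 694.6 and 579.1 CPM in TAZ-CAMTA1. Both constructs lay above EV, with rises of 1.23 ± 0.10 (edgeR adjusted p = 3.98e-10) and 0.70 ± 0.10 (edgeR adjusted p = 1.74e-05), though TAZ-CAMTA1 against EVsub gave 0.23 ± 0.10, not called. In TAZ4SA, at 455.9, 460 and 470.2 CPM, above EV, the rise of 0.24 ± 0.10 (edgeR adjusted p = 0.0396) was lost without EV replicate 2 (0.17), EV replicate 3 (0.25) or any TAZ4SA replicate (0.25, 0.24 and 0.23). It was also lost with library totals (0.06), DESeq2's size factors (0.21), no filter (0.21), at least 10 counts in every library (0.17) and the 2 groups alone (0.19). In TFE3, at 314.4, 294 and 301.7 CPM, Myl6 lay below EV and was the 1 member that fell, by -0.37 ± 0.10 (edgeR adjusted p = 0.0371). This call was lost without EV replicate 1 (-0.31), EV replicate 3 (-0.35), TFE3 replicate 1 (-0.39), TFE3 replicate 2 (-0.35) or TFE3 replicate 3 (-0.36), and with library totals (-0.36), no filter (-0.36) or replicate number as a block (-0.37). Of the heavy chains, Myh9 rose in YAP5SA and Myh10 fell in TAZ4SA and YAP5SA. Their levels over the 24 libraries ran from 929.6 to 1823 CPM and from 198.8 to 606.5 CPM, respectively. The Myh9 rise was lost with library totals (0.19). The Myh10 fall in YAP5SA, -0.32 ± 0.13, was lost without EV replicate 1 (-0.25), EV replicate 3 (-0.27), YAP5SA replicate 1 (-0.27) or YAP5SA replicate 2 (-0.30).

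**Figure D3:**
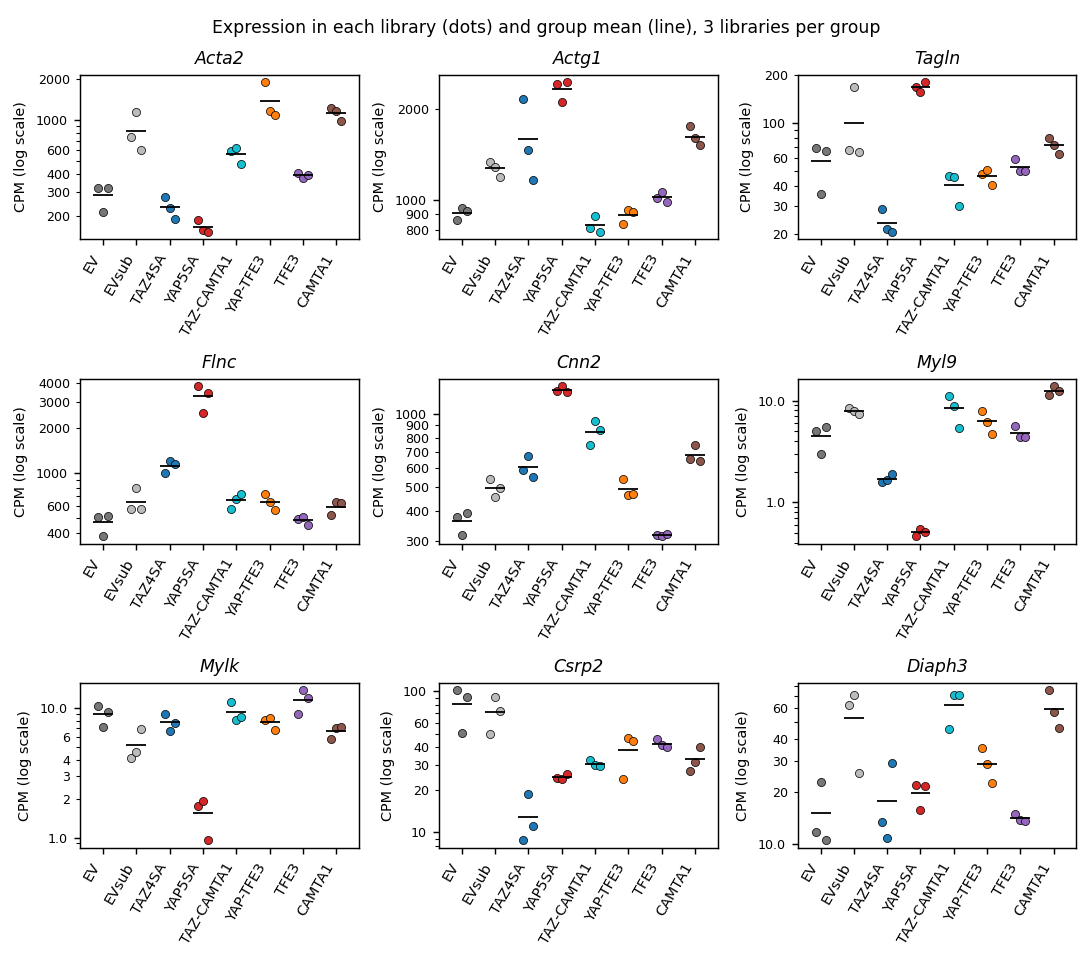
Points give CPM in each library (y axis, log scale) for 9 members across the 8 groups (x axis), and lines mark group means. Acta2 is above EV in YAP-TFE3 (1888, 1158 and 1091 CPM) and overlaps CAMTA1 there, Flnc and Cnn2 are highest in YAP5SA, Myl9 and Mylk are lowest in YAP5SA, and Diaph3 is high in TAZ-CAMTA1, EVsub and CAMTA1, directions that library totals do not change for called values.

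Tropomyosins, which coat filaments and set which proteins bind them, and caldesmon, smoothelin and leiomodin beside them, had more rises than falls called. Of the 7 genes, 5 rose and 1 fell in TAZ4SA, 4 rose and 1 fell in YAP5SA, and 4 rose in TAZ-CAMTA1, in YAP-TFE3 and in EVsub alike, with no falls called by edgeR. Of all genes, 31.1% rose and 26.4% fell in TAZ4SA, 36.3% and 34.9% in YAP5SA, 12.5% and 8.98% in TAZ-CAMTA1, 10.6% and 4.74% in YAP-TFE3, and 12.5% and 9.59% in EVsub. Smtn, smoothelin, rose by 0.85 ± 0.15 in TAZ4SA (edgeR adjusted p = 5.11e-05), by 0.98 ± 0.15 in YAP5SA (edgeR adjusted p = 4.63e-06) and by 0.75 ± 0.15 in TAZ-CAMTA1 (edgeR adjusted p = 0.000823). It was at 57.6, 40.4 and 54.8 CPM in EV, and all libraries of the 3 constructs were higher. Tpm1 rose in YAP5SA by 0.99 ± 0.11 (edgeR adjusted p = 8.58e-08) and in YAP-TFE3 by 0.50 ± 0.11 (edgeR adjusted p = 0.00356), and also in TAZ4SA and EVsub. Tpm2 rose in TAZ4SA, YAP5SA, YAP-TFE3 and EVsub, Tpm3 rose in TAZ-CAMTA1 and EVsub and fell in TAZ4SA, and Tpm4 rose in TAZ4SA, YAP5SA, TAZ-CAMTA1 and EVsub. Cald1, caldesmon, rose in TAZ4SA and YAP-TFE3. Many of these smaller calls depended on the setting. With library totals those of Tpm1 (0.21), Tpm2 (0.11) and Tpm4 (0.24) in TAZ4SA, Tpm3 (0.32) and Tpm4 (0.40) in TAZ-CAMTA1, Cald1 (0.52) in YAP-TFE3 and Tpm3 (0.34) in EVsub were lost. With the 2 groups alone those of Tpm1, Tpm2, Tpm4 and Cald1 in TAZ4SA and of Tpm1 and Tpm3 in EVsub were lost. With no filter those of Tpm2 in TAZ4SA (0.28), Tpm3 in TAZ-CAMTA1 (0.34) and Tpm3 in EVsub (0.36) were lost. The Tpm3 call in TAZ-CAMTA1 was also lost with DESeq2's size factors (0.31) and with replicate number as a block (0.33). In TAZ4SA the Tpm2 rise was lost without EV replicate 2 (0.24), EV replicate 3 (0.30) or TAZ4SA replicate 2 (0.21), and that of Tpm4 without TAZ4SA replicate 1 (0.32). In TAZ-CAMTA1 both were lost without EV replicate 1, EV replicate 3, TAZ-CAMTA1 replicate 2 or TAZ-CAMTA1 replicate 3 (Tpm3 0.33, 0.33, 0.28 and 0.34, Tpm4 0.38, 0.39, 0.33 and 0.40), and Tpm3 also without EV replicate 2 (0.33). Cald1 in YAP-TFE3 was lost without EV replicate 1 (0.50), EV replicate 3 (0.48) or YAP-TFE3 replicate 1 (0.45). In EVsub the calls of Tpm1 (0.30) and Tpm4 (0.39) were lost without EVsub replicate 1, and that of Tpm3 without EV replicate 1 (0.35), EV replicate 2 (0.35), EV replicate 3 (0.34) or EVsub replicate 2 (0.20). Tpm4 overlaps an antisense gene (mean count 58).

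Lmod1, leiomodin, which nucleates filaments in smooth muscle, was low. It had 2.91, 1.77 and 3.45 CPM in EV, 12.7, 7.47 and 7.39 CPM in YAP-TFE3 and 8.94, 6.89 and 4.15 CPM in TAZ-CAMTA1. Neither fusion overlapped EV, and Lmod1 rose by 1.75 ± 0.37 in YAP-TFE3 (edgeR adjusted p = 0.00182) and by 1.29 ± 0.37 in TAZ-CAMTA1 (edgeR adjusted p = 0.0146). The latter was lost without EV replicate 2 (1.06) or TAZ-CAMTA1 replicate 1 (1.02), and was 1.51 ± 0.37 against EVsub (edgeR adjusted p = 0.00556). In YAP5SA, at 1.28, 0.736 and 0.697 CPM, below EV, Lmod1 fell by -1.57 ± 0.45 (edgeR adjusted p = 0.0035). TFE3 alone, at 3.576, 4.558 and 5.23 CPM, also lay above EV and was not called (0.72 ± 0.37, edgeR adjusted p = 0.404).

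Among the crosslinkers, Flnc, the filamin of muscle, had the largest rise of the list in YAP5SA. EV had 513.4, 380.0 and 518.8 CPM, YAP5SA 3815, 2541 and 3455 CPM, and TAZ4SA 1012, 1209 and 1149 CPM. Neither group overlapped EV, and the rises were 2.80 ± 0.17 (edgeR adjusted p = 1.23e-11) and 1.25 ± 0.17 (edgeR adjusted p = 1.55e-06). In TAZ-CAMTA1, at 577.5, 678.3 and 724.2 CPM, the rise of 0.49 ± 0.16 (edgeR adjusted p = 0.036) was lost without EV replicate 1 (0.55), EV replicate 2 (0.35), TAZ-CAMTA1 replicate 2 (0.47) or TAZ-CAMTA1 replicate 3 (0.42), and was 0.03 ± 0.16 against EVsub. In EVsub, at 574.1, 791.4 and 573.3 CPM, the rise of 0.46 ± 0.16 (edgeR adjusted p = 0.0484) was lost without EV replicate 1 (0.52), EV replicate 2 (0.32), EV replicate 3 (0.53) or EVsub replicate 2 (0.29), and also with library totals (0.45), DESeq2's size factors (0.44), at least 10 counts in every library (0.42), replicate number as a block (0.46) and the 2 groups alone (0.45). Flna, the filamin of most cells, rose in YAP5SA and EVsub and fell in TAZ4SA. The YAP5SA call (0.46 ± 0.13) was lost with library totals (0.09). The EVsub call (0.40 ± 0.13) was lost with library totals (0.40), with the 2 groups alone in the fit (0.39), and without EV replicate 2 (0.30), EV replicate 3 (0.44), EVsub replicate 1 (0.38) or EVsub replicate 2 (0.33). The TAZ4SA call (-0.35 ± 0.13) was lost with the 2 groups alone (-0.40) and without EV replicate 1 (-0.29), EV replicate 3 (-0.30), TAZ4SA replicate 2 (-0.26) or TAZ4SA replicate 3 (-0.32).

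Csrp2, a LIM protein of smooth muscle that binds alpha-actinin, fell in 5 of the 7 comparisons with a vector. It stood at 101.3, 50.3 and 90.3 CPM in EV, with replicate 2 lowest. TAZ4SA had 8.78, 18.6 and 11.1 CPM, YAP5SA 24.1, 23.9 and 26.1 CPM, TAZ-CAMTA1 32.8, 29.9 and 29.6 CPM and YAP-TFE3 23.7, 46.8 and 44.7 CPM. All 4 groups lay below EV. The falls were -2.67 ± 0.29 in TAZ4SA (edgeR adjusted p = 1.11e-07), -1.71 ± 0.28 in YAP5SA (edgeR adjusted p = 1.01e-05), -1.39 ± 0.27 in TAZ-CAMTA1 (edgeR adjusted p = 0.000718) and -1.07 ± 0.27 in YAP-TFE3 (edgeR adjusted p = 0.00779). The YAP-TFE3 call was lost without EV replicate 1 (-0.87) or YAP-TFE3 replicate 1 (-0.85), and the TAZ-CAMTA1 fall was -1.21 ± 0.27 against EVsub (edgeR adjusted p = 0.00256). CAMTA1, at 27.3, 31.6 and 40.4 CPM, lay below EVsub, at 49.8, 91 and 72.3 CPM, by -1.10 ± 0.27 (edgeR adjusted p = 0.0308). That call was lost without EVsub replicate 2 (-0.88), EVsub replicate 3 (-1.09), CAMTA1 replicate 1 (-0.98) or CAMTA1 replicate 2 (-1.07), and with the 2 groups alone in the fit (-1.08). TFE3, at 46.2, 41.4 and 40 CPM, lay below EV and was not called (-0.92 ± 0.27, edgeR adjusted p = 0.0605), though it was without EV replicate 2 (-1.17), by DESeq2 (-0.91), with no filter (-0.92) and with the 2 groups alone (-0.91).

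Alpha-actinins, which link filaments into bundles, diverged. Actn1 had 383.8, 362.6 and 395.2 CPM in EV, 251.7, 228.4 and 293.2 CPM in TAZ4SA and 283.1, 305 and 323.8 CPM in YAP-TFE3. Both groups lay below EV, with falls of -0.56 ± 0.11 in TAZ4SA (edgeR adjusted p = 0.00017) and -0.32 ± 0.11 in YAP-TFE3 (edgeR adjusted p = 0.0488). The YAP-TFE3 fall was lost without EV replicate 1 (-0.32), EV replicate 2 (-0.36), EV replicate 3 (-0.30), YAP-TFE3 replicate 1 (-0.30) or YAP-TFE3 replicate 2 (-0.33), and with library totals (-0.34), no filter (-0.32) or replicate number as a block (-0.32). Against EVsub, Actn1 also fell in TAZ-CAMTA1 (-0.34 ± 0.11, edgeR adjusted p = 0.0295), where it was not called against EV (-0.13 ± 0.11). Actn4 rose in TAZ4SA by 0.70 ± 0.14 (edgeR adjusted p = 0.000204) and in YAP5SA by 1.27 ± 0.14 (edgeR adjusted p = 6.39e-08), and also in TAZ-CAMTA1 and EVsub.

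Of the PDZ and LIM adaptors, Pdlim5 fell in TAZ-CAMTA1. It was at 132.9, 138.8 and 141.5 CPM in EV and 94.4, 105.4 and 85.1 CPM in TAZ-CAMTA1, with no overlap, a fall of -0.54 ± 0.13 (edgeR adjusted p = 0.00382) that was -0.82 ± 0.13 against EVsub (edgeR adjusted p = 6.5e-05). Pdlim7 rose in TAZ4SA (1.19 ± 0.15, edgeR adjusted p = 6.5e-07) and YAP5SA (1.90 ± 0.15, edgeR adjusted p = 2.91e-10), and Csrp1 fell in both, by -0.82 ± 0.11 (edgeR adjusted p = 3.31e-06) and -1.73 ± 0.12 (edgeR adjusted p = 4.13e-11). Csrp1 fell in TAZ-CAMTA1 too (-0.41 ± 0.11, edgeR adjusted p = 0.011), lost without TAZ-CAMTA1 replicate 3 (-0.34). Synpo2, a filament bundling protein of muscle, rose in TAZ4SA and YAP5SA, from 5.53, 1.53 and 4.2 CPM in EV to 21.5, 14.3 and 17.6 CPM in YAP5SA, and its TAZ4SA call was lost with the 2 groups alone in the fit (0.95).

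Of the 5 genes of filament turnover and nucleation, 2 rose in TAZ4SA, 3 in YAP5SA, 2 in TAZ-CAMTA1 and 3 in EVsub, and no fall was called by edgeR. Of all genes 31.1%, 36.3%, 12.5% and 12.5% rose in these comparisons, and 26.4%, 34.9%, 8.98% and 9.59% fell. Diaph3, a formin that nucleates and elongates filaments, was at 11.8, 22.8 and 10.5 CPM in EV and 45.4, 71.6 and 71.4 CPM in TAZ-CAMTA1. The TAZ-CAMTA1 libraries were all higher, and Diaph3 rose by 2.06 ± 0.36 (edgeR adjusted p = 0.000242). EVsub, at 62.1, 70.9 and 25.6 CPM, rose as well, by 1.82 ± 0.36 (edgeR adjusted p = 0.00104), with replicate 3 lowest but above EV. TAZ-CAMTA1 against EVsub gave 0.25 ± 0.34 (edgeR adjusted p = 0.651), and the sub-confluent CAMTA1 libraries had 75.6, 56.6 and 46 CPM. YAP-TFE3, at 35.6, 28.7 and 22.3 CPM, was not called (0.94 ± 0.36, edgeR adjusted p = 0.0814), though it was without EV replicate 2 (1.37) and with no filter (0.95). Dstn, which severs filaments, rose by 0.65 ± 0.12 in TAZ4SA (edgeR adjusted p = 0.000121) and by 1.52 ± 0.13 in YAP5SA (edgeR adjusted p = 7.01e-10), and also in TAZ-CAMTA1 and EVsub. Diaph1, another formin, rose in TAZ4SA (0.87 ± 0.13, edgeR adjusted p = 8.35e-06) and YAP5SA (0.82 ± 0.13, edgeR adjusted p = 9.75e-06). Pfn1, profilin, rose in YAP5SA (0.61 ± 0.15), lost with library totals (0.24), and in EVsub (0.45 ± 0.15), lost with the 2 groups alone (0.44) and without EV replicate 1 (0.44), EV replicate 2 (0.43), EV replicate 3 (0.46) or EVsub replicate 2 (0.21). Cfl1, with 501.1 to 994.1 CPM over the 24 libraries, was not called by edgeR in the 7 comparisons, but DESeq2 called a fall in TAZ4SA (-0.33). In edgeR that fall (-0.30 ± 0.13) was called with DESeq2's size factors (-0.33), library totals (-0.48), at least 10 counts in every library (-0.36) or without TAZ4SA replicate 2 (-0.35), and a fall in YAP5SA with library totals (-0.42). Cfl1 overlaps an antisense gene (mean count 77).

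Srf, whose promoter holds a pair of CArG boxes, had 48.4, 51.3 and 64.4 CPM in EV, 119.6, 77.4 and 64.6 CPM in TAZ4SA and 71.2, 75.6 and 71.2 CPM in YAP5SA. TAZ4SA replicate 1 was far above the rest, replicate 3 barely above EV, and YAP5SA lay above EV. Srf rose by 0.67 ± 0.16 in TAZ4SA (edgeR adjusted p = 0.000917), or 0.38 without TAZ4SA replicate 1, and was not called with the 2 groups alone in the fit (0.62). In YAP5SA it rose by 0.41 ± 0.16 (edgeR adjusted p = 0.0239), lost without EV replicate 1 (0.33), EV replicate 2 (0.37) or YAP5SA replicate 2 (0.38), and with library totals (0.04) or at least 10 counts in every library (0.31). It was not called in TAZ-CAMTA1 (0.02 ± 0.16), YAP-TFE3 (-0.21 ± 0.16), TFE3 (-0.02 ± 0.16), CAMTA1 (0.39 ± 0.16) or EVsub (0.15 ± 0.16).

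Direct contrasts asked how the fusions differ from hyperactive TAZ and YAP. In YAP-TFE3 vs YAP5SA 9 members were higher and 20 lower, where 36.4% of all genes tested were higher and 34.5% lower, with a median of -0.49 beside 0.05. Of 9 smooth muscle markers tested, 3 were higher and 4 lower, and of 14 fibroblast markers 11 were higher and 3 lower. Most of these smooth muscle markers are members already counted here, so their tally is not a separate check. The higher members included some that fell in YAP5SA vs EV, Acta2 by 3.06 ± 0.24 (edgeR adjusted p = 3.39e-10), Myl9 by 3.62 ± 0.31 (edgeR adjusted p = 1.71e-09) and Lmod1 by 3.32 ± 0.43 (edgeR adjusted p = 4.83e-07). Mylk, which fell there as well, was higher by 2.32 ± 0.25 (edgeR adjusted p = 5.08e-08). Myl9 had 9, 11 and 8 counts and Lmod1 25, 15 and 11 in the YAP5SA libraries, so the sizes of their differences rest on few counts. Flnc was lower by -2.35 ± 0.17 (edgeR adjusted p = 1.44e-10), Actg1 by -1.38 ± 0.15 (edgeR adjusted p = 5.45e-08) and Cnn2 by -1.35 ± 0.12 (edgeR adjusted p = 1.32e-09). With library totals the median over all genes moved to 0.41, and 12 members were higher and 13 lower (7066 and 3386 of all genes), with Tpm2 turning from not called and lower to called and higher.

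In TAZ-CAMTA1 vs TAZ4SA 15 members were higher and 9 lower, where 26.6% of all genes were higher and 28.1% lower, with a median of 0.18 beside 0.00. Of 9 smooth muscle markers, most of them members already counted, 3 were higher and 4 lower, and of 14 fibroblast markers 11 were higher and 3 lower. Myl9 was higher by 2.29 ± 0.26 (edgeR adjusted p = 3.39e-07), Acta2 by 1.29 ± 0.22 (edgeR adjusted p = 5.19e-05) and Csrp2 by 1.28 ± 0.28 (edgeR adjusted p = 0.000676). Actg1 was lower by -0.95 ± 0.15 (edgeR adjusted p = 2.21e-05), Srf by -0.65 ± 0.16 (edgeR adjusted p = 0.00137), or -0.36 without TAZ4SA replicate 1, and Cnn1 by -2.52 ± 0.56 (edgeR adjusted p = 0.000692), or -3.79 without TAZ-CAMTA1 replicate 3. The Cnn1 ratio was 0.175 (95% counting interval 0.0704 to 0.384, 8 against 36 counts). Library totals moved the median over all genes to 0.17 and gave 16 members higher and 9 lower (4816 and 2950 of all genes). If TAZ-CAMTA1 cells were sub-confluent, density differed here too, and Acta2 and Myl9 both rose in EVsub vs EV.

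In TAZ4SA vs YAP5SA 5 members were higher and 20 lower, where 22.8% of all genes were higher and 19.6% lower, with a median of -0.43 beside 0.05. Mylk was higher in TAZ4SA by 2.33 ± 0.26 (edgeR adjusted p = 7.59e-07) and Myl9 by 1.76 ± 0.35 (edgeR adjusted p = 0.00047), while Flnc was lower by -1.54 ± 0.17 (edgeR adjusted p = 6.37e-07) and Cnn2 by -1.06 ± 0.11 (edgeR adjusted p = 6.37e-07). Library totals moved the median over all genes to 0.25 and gave 8 members higher and 15 lower (4786 and 1805 of all genes). With the 2 groups alone in the fit 17 of the 25 calls were kept. Those of Actb, Actg1, Myh9, Tpm2, Tpm3, Tpm4, Cald1 and Actn1 were lost, and Tagln2 was gained.

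Between the fusions, TAZ-CAMTA1 vs YAP-TFE3, 5 members were higher and 3 lower, where 5.32% of all genes were higher and 6.32% lower, with a median of 0.12 beside -0.01. Acta2 was lower in TAZ-CAMTA1 by -1.29 ± 0.22 (edgeR adjusted p = 0.000412) and Cnn2 higher by 0.78 ± 0.11 (edgeR adjusted p = 6.48e-05). Library totals gave 3 higher and 3 lower. The 8 calls became 3 without TAZ-CAMTA1 replicate 2, YAP-TFE3 replicate 1 or YAP-TFE3 replicate 2, 4 without TAZ-CAMTA1 replicate 3 and 5 without YAP-TFE3 replicate 3. If TAZ-CAMTA1 cells were sub-confluent, density differed between these groups too.

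**Figure D4:**
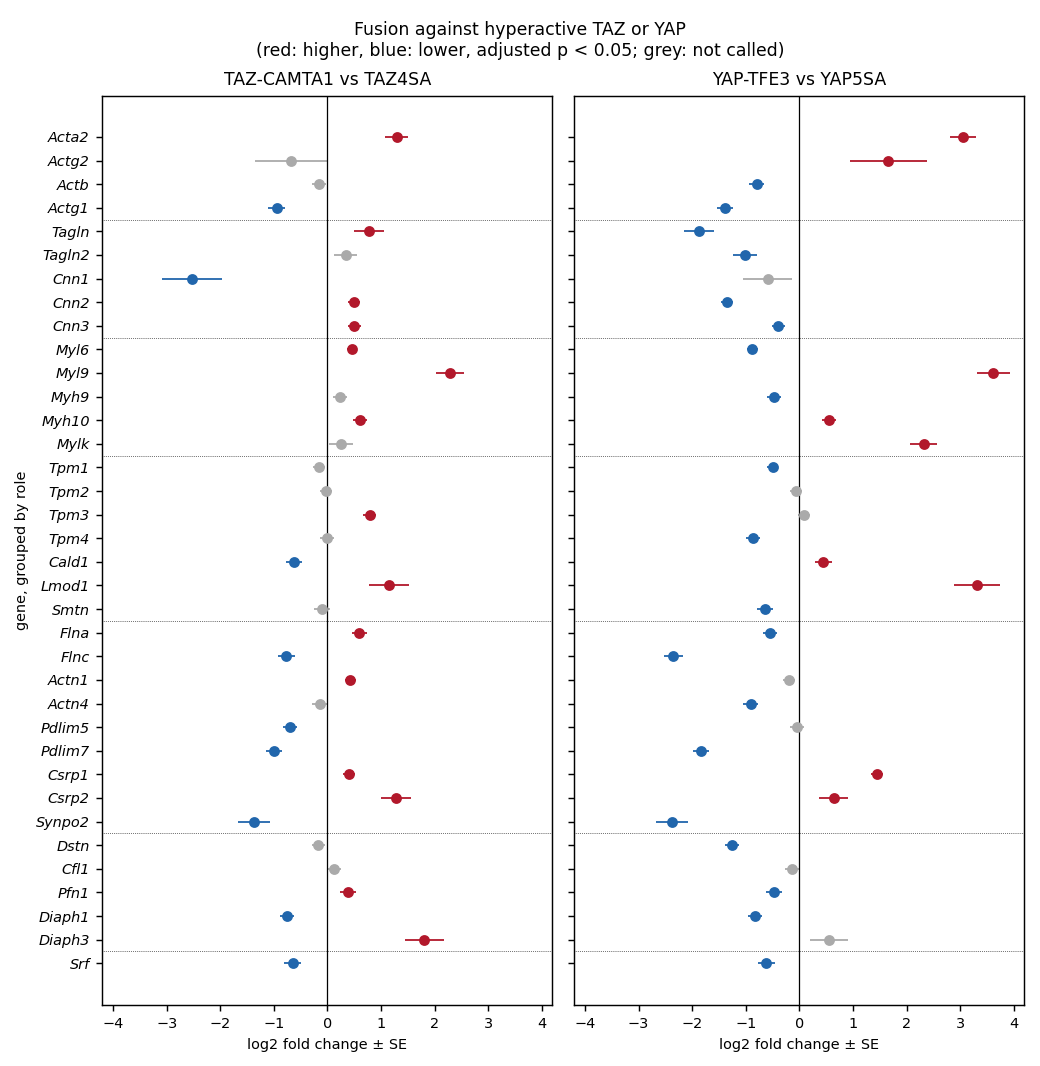
Points give the log2 fold change (x axis) with its standard error (bars) of each member (y axis) in the direct contrasts of YAP-TFE3 with YAP5SA and of TAZ-CAMTA1 with TAZ4SA, and coloured points have an edgeR adjusted p under 0.05. Acta2, Myl9 and Lmod1 are higher in YAP-TFE3 than in YAP5SA by over 3 on the log2 scale while Flnc is lower by -2.35, and with library totals Tpm2 changes sign in that contrast. Myl9 and Lmod1 had few counts in YAP5SA.

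Other genes that handle actin filaments were followed as lists. Of 17 genes of the Arp2/3 complex, which nucleates branched filaments, and its activators, 4 rose and 4 fell in TAZ4SA and 11 rose and 4 fell in YAP5SA (all genes: 31.1% and 26.4%, 36.3% and 34.9%). In TAZ-CAMTA1 2 rose and 3 fell, in YAP-TFE3 3 rose and 1 fell, in TFE3 1 rose, and in EVsub 1 rose and 2 fell (all genes: 12.5% and 8.98%, 10.6% and 4.74%, 2.36% and 1.02%, 12.5% and 9.59%). The complex subunit Arpc3 was at 154.3, 153.5 and 142.8 CPM in EV and 350.6, 346.5 and 311 CPM in YAP5SA, all higher, and rose by 1.16 ± 0.12 (edgeR adjusted p = 2.13e-08). Wasf1, an activator, rose there by 1.06 ± 0.12 (edgeR adjusted p = 1.2e-07). The subunit Arpc5 fell in TAZ4SA and YAP5SA, by -0.65 ± 0.09 and -0.75 ± 0.09, and so did Cttn, cortactin, by -0.80 ± 0.09 and -0.53 ± 0.09. The TAZ4SA rises of Arpc5l (0.39 ± 0.10) and Arpc2 (0.38 ± 0.09) were lost with library totals (0.22 and 0.19) and with the 2 groups alone (0.34 and 0.32). Arpc5l overlaps Rpl35 on the opposite strand (mean count 10747).

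Of 26 genes that cap, bundle or anchor filaments or bind monomers, 6 rose and 6 fell in TAZ4SA and 11 rose and 8 fell in YAP5SA (all genes: 31.1% and 26.4%, 36.3% and 34.9%). In TAZ-CAMTA1 8 rose and 2 fell, in YAP-TFE3 6 rose and 1 fell, in TFE3 2 rose, in CAMTA1 vs EVsub 1 rose, and in EVsub 3 rose and 3 fell (all genes: 12.5% and 8.98%, 10.6% and 4.74%, 2.36% and 1.02%, 1.29% and 0.891%, 12.5% and 9.59%). Ezr, ezrin, which ties filaments to the membrane, was at 29.7, 28.6 and 27.1 CPM in EV, 89.5, 86.2 and 63.5 CPM in TAZ4SA and 116.5, 120.4 and 108.7 CPM in YAP5SA. It rose by 1.48 ± 0.15 and 2.02 ± 0.15 (edgeR adjusted p = 3.05e-08 and 1.17e-10), with no overlap. The related Msn rose by 0.86 ± 0.12 in TAZ4SA, and Cfl2, muscle cofilin, by 1.42 ± 0.16 in YAP5SA. Fmnl2, a formin, fell in both, by -1.33 ± 0.13 and -1.45 ± 0.13. Tmod1, which caps filament ends, had 0.718, 0.191 and 0.443 CPM in EV and fell by -1.84 ± 0.61 and -1.64 ± 0.60, with libraries that overlapped EV. Those calls were lost without EV replicate 1 (-1.33 and -1.13), without TAZ4SA replicate 3 in the former (-1.59) and without YAP5SA replicate 3 in the latter (-1.35). The TAZ4SA call was also lost with the 2 groups alone (-1.88).

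With 3 libraries in a group, pooled lines and an unstated counting step, the results describe these RNA levels, and neither protein nor filaments was measured. Differences too small for 3 libraries would not have been called.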

How the data were processed

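RNA was measured in 24 libraries of 8 groups. As deposited, the values are read counts per gene, which the authors made from paired reads of stranded mRNA libraries (bcl2fastq, alignment to mm10 with Hisat2). The study's methods also name Salmon, with tximport giving counts per gene, but not which route made the deposited counts or its strand setting. The 36 members and the other gene lists were chosen with earlier results of these data known.

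Counts of 39017 gene identifiers were read without change, 37693 of which were matched to names and exon lengths in GENCODE M21. The 14361 genes with a mean count of at least 5 were tested with edgeR 4.0.16 in R 4.3.3 (TMM scaling, quasi-likelihood fit of all 24 libraries, 11 comparisons), and adjusted p-values follow Benjamini and Hochberg. Tables and figures used Python 3.11.15 with pandas 2.3.3, numpy 2.4.6, scipy 1.17.1 and matplotlib 3.10.9. Library totals, given with the results, ran from 16471181 to 30132586 counts.

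Named genes were Acta2, Actb, Actg1, Srf and, in each of 7 comparisons with a vector, the called members with the 2 largest rises and the 2 largest falls. From the other lists given, the 2 largest called rises and falls in TAZ4SA vs EV and YAP5SA vs EV were named, and 1 further list is not reported here. Other settings tried were DESeq2 1.42.0, its size factors within edgeR, library totals, no filter, at least 10 counts in every library, replicate number as a block, a fit of the 2 groups alone, a log2 fold change of 1 or more in size, and each library left out. EVsub in place of EV for TAZ-CAMTA1 was added after seeing the data. Where the summed counts are small, 95% intervals of ratios are exact for the counting error. No library was left out of the results given first.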

Additional observations from a re-analysis of the deposited data

How the results depend on the processing

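For 16 named members, 2282 values were compared between settings. Of these 2119 kept their side of the threshold, 129 lost the call, 32 gained it, and 2 reversed. The 2 reversed values changed direction and were called before or after the change of setting. Of 93 called values 58 were called in every alternative that gave a value. The reversed values both belong to TAZ-CAMTA1 with EVsub as the control, a choice made after seeing the data: Acta2, from 0.99 to -0.56, and Cnn3, from -0.09 to 0.36. Actb and Srf, called under neither control, also turned from higher to lower there (-0.18 and -0.13 against EVsub). The control libraries differ there, and the cause was not tested further. That control gave 14 members and 3068 genes called, beside 16 and 3088 with EV.

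With a log2 fold change of 1 or more in size also required, which by construction can only remove calls, members and genes called were 6 and 3525 in TAZ4SA vs EV, 16 and 5683 in YAP5SA vs EV, 4 and 1123 in TAZ-CAMTA1 vs EV, 3 and 877 in YAP-TFE3 vs EV, 0 and 139 in TFE3 vs EV, 1 and 151 in CAMTA1 vs EVsub, and 3 and 961 in EVsub vs EV. In the direct contrasts they were 7 and 3019 in TAZ-CAMTA1 vs TAZ4SA, 14 and 5606 in YAP-TFE3 vs YAP5SA, 2 and 599 in TAZ-CAMTA1 vs YAP-TFE3, and 7 and 1739 in TAZ4SA vs YAP5SA.

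With only the 2 groups in the fit, which has fewer libraries to estimate spread, 17 members were called in TAZ4SA vs EV, 4 members and 1512 genes in TFE3 vs EV, 0 members and 22 genes in CAMTA1 vs EVsub, 9 members and 1683 genes in EVsub vs EV, 2572 genes in TAZ-CAMTA1 vs YAP-TFE3 and 2910 genes in TAZ4SA vs YAP5SA. DESeq2 called 3 members in TFE3 vs EV, and 6 members and 636 genes in CAMTA1 vs EVsub. Without a filter CAMTA1 vs EVsub had 1 member and 674 genes. With library totals TFE3 vs EV had 0 members. With the replicate number as a block TFE3 vs EV had 0 members and CAMTA1 vs EVsub had 1. Correlations of same-numbered residuals across groups ran from -0.212 to 0.41 and no comparison had all 3 above 0.1. In CAMTA1 vs EVsub they were 0.252, -0.002 and 0.41 for replicates 1, 2 and 3. Such a check cannot exclude that some same-numbered libraries were paired. The cause of the differences between settings was not tested.

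With each library left out in turn, genes called ran from 2010 to 3198 in TAZ-CAMTA1 vs EV (3088 with all). In YAP-TFE3 vs EV members ran from 4 to 10 and genes from 1133 to 2266 (9 and 2203 with all). In TFE3 vs EV members ran from 0 to 2 and genes from 192 to 286 (1 and 485), and in CAMTA1 vs EVsub members from 0 to 5 and genes from 72 to 710 (2 and 313). In EVsub vs EV members ran from 13 to 22 and genes from 1971 to 3668 (21 and 3173), and in TAZ-CAMTA1 vs YAP-TFE3 members from 3 to 6 and genes from 835 to 1549 (8 and 1671). Fewer libraries were fitted, and the cause was not tested further. Depth limits Cnn1, with 8 counts over the EV libraries.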

Other observations

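Of 17 listed genes of striated muscle 7 passed the minimum mean count, and those near 0 in EV passed through the libraries in which they were high, so a tally of rises among them is not informative. Tnnt3, a fast skeletal troponin T, was at 0.0844, 0.0955 and 0.221 CPM in EV, 8.53, 6 and 2.24 CPM in TAZ4SA and 11.8, 46.6 and 14.6 CPM in YAP5SA, with replicate 2 highest in YAP5SA. With 9 counts in all of EV against 303 and 1409, the ratio was 40.25 (95% counting interval 20.92 to 88.87) and 189.2 (99.36 to 414.5), intervals that leave out the spread between replicates. Myl4, an atrial light chain, fell by -2.38 ± 0.37 (edgeR adjusted p = 1.06e-05) and -1.62 ± 0.34 (edgeR adjusted p = 0.000189). Des, desmin, the intermediate filament of muscle and 1 of the smooth muscle markers, was at 0.169, 0.0955 and 0 CPM in EV, 7.19, 8.32 and 3.87 CPM in TAZ4SA and 4, 2.65 and 2.15 CPM in YAP5SA. With 6 counts in all of EV, the ratio was 68.54 in TAZ4SA (31.17 to 188.1), 33.43 in YAP5SA (15.04 to 92.4), 12.11 in TAZ-CAMTA1 (5.317 to 34.02), 19.71 in YAP-TFE3 (8.811 to 54.69) and 6.387 in EVsub (2.702 to 18.38). Tnnc1 overlaps Nisch on the opposite strand (mean count 10302), so its reads are uncertain. These genes were chosen after their values were seen.

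Cd68, a lysosomal membrane protein abundant in macrophages, was at 3.5, 2.48 and 3.54 CPM in EV, 56, 53.8 and 12.1 CPM in TAZ4SA and 77.8, 76.4 and 46.5 CPM in YAP5SA. No library of either group overlapped EV, and TAZ4SA replicate 3 was the lowest of them. It rose by 3.67 ± 0.39 (edgeR adjusted p = 9.02e-08) and 4.39 ± 0.40 (edgeR adjusted p = 2.8e-09). Kdr, a VEGF receptor of endothelium, was at 0, 0.0478 and 0.177 CPM in EV and 11.2, 10.1 and 7.61 CPM in TAZ4SA, and Vwf, an endothelial clotting factor, was at 0.633, 0.668 and 0.398 CPM in EV and 8.63, 9.85 and 5.18 CPM in YAP-TFE3. All of these libraries lay above EV. Kdr, near 0 in EV (5 counts in all), also passed the minimum through the libraries in which it was high. Its ratio to EV was 127.4 in TAZ4SA (95% counting interval 54.27 to 394.1), 86.51 in YAP5SA (36.73 to 268.1), 11.37 in YAP-TFE3 (4.617 to 36.23) and 11.15 in TFE3 alone (4.531 to 35.55). Vwf rose in YAP-TFE3 by 3.79 ± 0.51 (edgeR adjusted p = 1.53e-05) and in TFE3 alone by 2.80 ± 0.51 (edgeR adjusted p = 0.00289). It also rose in TAZ4SA by 1.99 ± 0.54 (edgeR adjusted p = 0.00326), with libraries that overlapped EV. Tek, another endothelial receptor, went the other way, by -3.91 ± 0.51 in TAZ4SA (edgeR adjusted p = 1.2e-06), -2.32 ± 0.42 in YAP5SA (edgeR adjusted p = 4.23e-05) and -3.34 ± 0.45 in EVsub (edgeR adjusted p = 2.92e-05). These genes too were chosen after their values were seen.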
